A study of Mus musculus with 12 samples.

Results

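The measurement described here is the difference between a pair of changes that accompany Prdm16s in mouse bone marrow: the change from control to leukemic megakaryocyte-erythroid progenitors (MEP), minus the change from control marrow to GFP+ leukemic marrow. It used all 12 libraries of the series, in 4 groups of 3, and 11462 of the 24107 genes in the table, those with at least 1 FPKM (read counts scaled by gene length and library size) in at least 3 libraries. All cells were of the C57BL/6 strain. Wild-type mice gave the control MEP and the unselected control marrow. Recipient mice with leukemia gave the leukemic MEP and the GFP+ marrow cells, both of the genotype Prdm16s. Age, the vector and the number of mice behind a library are not in the labels, so p-values reflect only how much these samples vary, which may be technical. In both pairs Prdm16s, leukemia and being a transplant recipient go together and cannot be told apart. Sex is not in the labels, but Xist, the RNA of the inactive X chromosome of female cells, was high in 4 of the 6 Prdm16s libraries (numbers 1 and 2 of both groups) and in 0 of the 6 control libraries, and its part in the changes was not tested. The GFP+ marrow was a selected cell population and the control marrow was not, so within the marrow change the loss of GFP-negative cells cannot be told apart from a change within cells. In bulk RNA of this kind fewer cells of a type and less RNA per cell cannot be told apart either.

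MEP are marrow progenitors that give rise to megakaryocytes, the parents of platelets, and to red cells. GATA1 with KLF1 drives the red cell programme, and FLI1, an ETS-family factor, drives the megakaryocyte programme. PRDM16 is a zinc-finger transcription regulator needed in blood stem cells, and Prdm16s is its short form, which lacks the PR domain and is known to promote acute myeloid leukemia. A positive difference here means that a gene's change in MEP was more upward, or less downward, than its change in marrow.

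The deposited FPKM values corresponded to 6.72 to 9.71 M whole reads in 10 libraries, and to 0.572 M in leukemic MEP 3 and 1.15 M in GFP+ marrow 2. Leukemic MEP 3 stood apart from its group: Pearson's r over the log2 values of the tested genes was 0.806 and 0.794 with leukemic MEP 1 and 2, which had 0.966 between them. The summed FPKM of 4 granulocyte precursor markers (Mpo, Elane, Prtn3, Ctsg) was 456 in leukemic MEP 1, 606 in leukemic MEP 2 and 22387 in leukemic MEP 3, compared with 9.97 to 105 in control MEP and 12878 to 15508 in control marrow. The summed megakaryocyte markers (Itga2b, Pf4, Ppbp, Gp9, Gp1bb) were 5630, 4632 and 287 in the same 3 libraries, and the summed erythroid markers (Klf1, Gata1, Epor, Rhag) were 629, 547 and 98.8. The granulocyte markers of leukemic MEP 3 lay above those of control marrow, against its label, so counts of differences, list medians and the differences of the main genes are also given without it, over 11 libraries. In GFP+ marrow 3 fewer genes were above 0 (11144, against 12018 and 13302 in the other libraries of its group), and its r with them was 0.917 and 0.904. Control MEP carried their defining erythroid markers at 1252 to 1567 FPKM and megakaryocyte markers at only 7.96 to 120 FPKM.

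To show the DNA beside the genes that the results turn on, the 250 bases before the start of the first listed transcript are printed 5′ to 3′ for 4 genes with a large positive difference and 1 with a negative one. The sequences are those of RefSeq on GRCm38.p6, at chr7:103827929-103828178 (minus strand) for Hbb-bs, chr11:32296242-32296491 (plus) for Hba-a2, chr11:17008719-17008968 (minus) for Plek, chr3:20242182-20242431 (minus) for Cpa3 and chr7:38107491-38107740 (minus) for Ccne1. Capitals mark the letters GATAA or TTATC (the core bound by GATA factors, on either strand), GGAAGT or ACTTCC (a core bound by ETS factors) and CACCC or GGGTG (bound by KLF factors).
Hbb-bs: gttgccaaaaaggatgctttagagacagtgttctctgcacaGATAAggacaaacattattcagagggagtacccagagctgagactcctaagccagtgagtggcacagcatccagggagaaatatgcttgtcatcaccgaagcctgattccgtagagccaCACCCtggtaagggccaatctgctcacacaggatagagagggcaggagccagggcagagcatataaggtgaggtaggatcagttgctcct
Hba-a2: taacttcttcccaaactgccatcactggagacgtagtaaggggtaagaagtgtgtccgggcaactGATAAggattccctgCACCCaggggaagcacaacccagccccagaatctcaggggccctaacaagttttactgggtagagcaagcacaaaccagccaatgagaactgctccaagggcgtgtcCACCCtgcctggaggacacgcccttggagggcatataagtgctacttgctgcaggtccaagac
Plek: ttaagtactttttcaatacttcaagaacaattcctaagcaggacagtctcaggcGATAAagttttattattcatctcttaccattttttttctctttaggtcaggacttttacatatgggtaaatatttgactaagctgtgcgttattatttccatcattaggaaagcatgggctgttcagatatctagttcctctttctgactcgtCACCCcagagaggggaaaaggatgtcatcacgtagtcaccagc
Cpa3: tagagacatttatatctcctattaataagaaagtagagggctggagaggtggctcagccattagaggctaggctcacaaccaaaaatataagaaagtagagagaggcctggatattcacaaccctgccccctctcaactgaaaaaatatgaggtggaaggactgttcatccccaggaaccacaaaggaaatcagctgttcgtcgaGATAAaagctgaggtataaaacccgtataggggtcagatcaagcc
Ccne1: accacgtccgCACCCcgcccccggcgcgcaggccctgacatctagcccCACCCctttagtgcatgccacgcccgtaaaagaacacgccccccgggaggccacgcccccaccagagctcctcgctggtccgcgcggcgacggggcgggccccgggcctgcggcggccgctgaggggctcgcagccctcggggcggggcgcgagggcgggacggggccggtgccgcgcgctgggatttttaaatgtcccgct
The stretches of Hbb-bs, Hba-a2, Plek and Cpa3 each hold 1 GATAA and no GGAAGT, and that of Ccne1 holds neither. CACCC is in the stretches of Hbb-bs, Hba-a2, Plek and Ccne1 and not in that of Cpa3. The genes printed were picked by hand and not by a rule. Of the 12 top-ranked positive genes named further on, 8 had a promoter in the table, and 6 of these 8 held GATAA, 0 held GGAAGT and 5 held CACCC. Of the 12 top-ranked negative genes, 11 had a promoter, and 1 held GATAA, 2 held GGAAGT and 7 held CACCC. Over the 9173 tested genes with a promoter of the same length the shares were 15%, 25% and 55.9%. These counts are descriptions of letters in short windows and were not tested.

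The difference of changes passed the test for 560 genes (limma, adjusted p under 0.05), of which 518 (4.52% of those tested) were positive and 42 (0.366%) negative. A gene is counted below as positive or negative only where its difference passed this test. In the 2 changes themselves, 1567 genes (13.7%) rose and 1409 (12.3%) fell in MEP, and 346 (3.02%) rose and 691 (6.03%) fell in marrow. Of the 518 positive genes, 289 rose in MEP with no call in marrow, 151 fell in marrow with no call in MEP, 38 rose in both, 31 rose in MEP and fell in marrow, 1 fell in both and 8 had a call in neither. Control MEP had the lowest group mean for 424 of the 518 (81.9%, against 36.7% of all tested genes), and control marrow the highest for 243 (46.9%, against 13.2%). Of the 42 negative genes, 29 fell in MEP with no call in marrow, 6 fell in both, 4 rose in marrow with no call in MEP, 1 rose in both and 2 had a call in neither. Leukemic MEP had the lowest mean for 38 of these 42 (90.5%, against 20.2% of all tested genes).

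**Figure D1:**
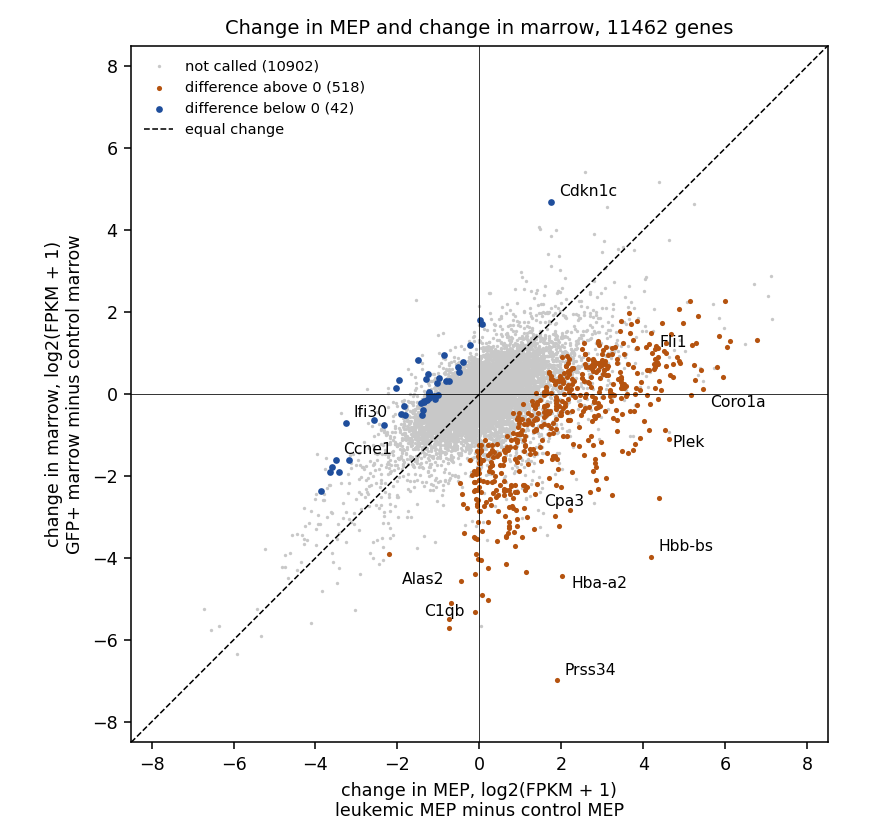
Each point is 1 of 11462 genes, with its change in MEP on the x axis and its change in marrow on the y axis, both in log2(FPKM + 1). Genes on the dashed line changed equally. The 518 genes called above 0 (orange) lie below that line and the 42 called below 0 (blue) lie above it.

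Without leukemic MEP 3, 1075 of 11342 genes were called, 864 (7.62%) positive and 211 (1.86%) negative. In the changes themselves the 11 libraries gave 1715 rises (15.1%) and 1393 falls (12.3%) in MEP, and 939 rises (8.28%) and 1187 falls (10.5%) in marrow. Of the 864 positive genes, 420 then rose in MEP with no call in marrow, 251 fell in marrow with no call in MEP, 110 rose in both, 70 rose in MEP and fell in marrow, 6 fell in both and 7 had a call in neither. Of the 211 negative genes, 83 fell in MEP with no call in marrow, 73 rose in marrow with no call in MEP, 25 fell in both, 13 fell in MEP and rose in marrow, 7 rose in both and 10 had a call in neither. Of the 560 genes called in 12 libraries, 553 were also called in 11, with the same sign. These were 98.8% of the first set and 51.4% of the second. The other 7 no longer met the filter. The number of calls also moved with single libraries of the control groups, from 213 without control marrow 1 and 261 without control MEP 3 to 340 without control MEP 2.

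Prdm16 itself was read at 0.833, 0.363 and 0.471 FPKM in control MEP against 15.3, 6.35 and 14.1 in leukemic MEP, and at 0.829, 0.632 and 0.957 in control marrow against 9.99, 7.09 and 10 in GFP+ marrow. Every Prdm16s library was above every control library. The change was 2.98 in MEP and 2.46 in marrow, and the difference of 0.52 ± 0.46 (log2, SE) did not pass the test (limma, adjusted p = 0.622; 0.36 and 0.724 without leukemic MEP 3). Under quantile normalization its sign was negative, at -0.34. The table does not separate reads of the short form from other reads of the gene.

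Megakaryocyte and platelet genes stood on the positive side. Of 28 tested members, 14 were positive and 0 negative by the test, with a median difference of 3.42 against 0.04 for all tested genes. Of the 28, 22 rose in MEP and 0 fell, and in marrow 3 rose and 1 fell. Without leukemic MEP 3 the count was 21 of 28, with a median of 3.84. The 14 were Vwf, Fli1, Gp9, Clec1b, Ptgs1, Itgb3, Mmrn1, Tbxas1, Cavin2, F2rl2, Itga2b, Cd9, Tbxa2r and Plek, at 2.30 to 5.40.

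Fli1 (chromosome 9, 32422204 to 32543432) was at 3.52, 4.66 and 2.55 FPKM in control MEP against at 103, 99.5 and 55.9 in leukemic MEP. In control marrow it was at 52.6, 32.9 and 35.1 FPKM, and in GFP+ marrow at 70.5, 83.2 and 88.8. Neither pair of groups overlapped, and control MEP alone was low. Fli1 rose by 4.22 ± 0.28 in MEP and 1.01 ± 0.28 in marrow on the log2 scale, and the difference was 3.21 ± 0.40 (limma, adjusted p = 0.000964; 3.49 without leukemic MEP 3).

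Plek (chromosome 11, 16971206 to 17008718) encodes pleckstrin, the main protein kinase C substrate of platelets. It was at 0.398, 1.84 and 0.129 FPKM in control MEP against 52.7, 54.8 and 17.5 in leukemic MEP, and at 29.4, 18.8 and 14.8 in control marrow against 7.70, 13.5 and 11.3 in GFP+ marrow. It rose in MEP by 4.53 ± 0.47, its marrow change of -0.87 did not pass the test, and the difference was 5.40 ± 0.66 (limma, adjusted p = 0.000893; 5.93 without leukemic MEP 3). Tbxa2r, the thromboxane receptor of platelets (chromosome 10, 81328268 to 81335174), was at 0.207 to 0.22 FPKM in control MEP against 16.8, 5.78 and 4.30 in leukemic MEP, and at 4.05, 4.49 and 4.30 in control marrow against 2.12, 0.475 and 0 in GFP+ marrow. The groups of each pair did not overlap and moved opposite ways. Tbxa2r rose by 2.83 ± 0.47 in MEP and fell by 1.67 in marrow, a difference of 4.49 ± 0.66 (limma, adjusted p = 0.00242; 4.84 without leukemic MEP 3).

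Itga2b, the platelet fibrinogen receptor's alpha chain CD41, had 1.05, 3.44 and 0.673 FPKM in control MEP against 47.4, 32.6 and 9.05 in leukemic MEP. Its marrow values were 9.06, 10 and 7.61 in controls and 3.49, 4.47 and 4.89 in GFP+ cells, and the difference was 4.26 ± 0.73 (limma, adjusted p = 0.0057). Its partner chain Itgb3 had a difference of 3.48 (limma, adjusted p = 0.00482). Vwf, the platelet adhesion protein von Willebrand factor, was at 12.1, 8.19 and 4.96 FPKM in the leukemic MEP libraries and at no more than 1.16 in any other library. Its difference of 2.30 ± 0.48 (limma, adjusted p = 0.0166; 2.60 without leukemic MEP 3) lost the call under quantile normalization (1.26, adjusted p = 0.183), with a pseudocount of 0.1 (0.0505) and without control MEP 3 (0.0625) or any 1 control marrow library (0.0544 to 0.0645). Gp9, a chain of the platelet receptor for von Willebrand factor, had a difference of 3.40 (limma, adjusted p = 0.0137; 0.0534 without control marrow 1).

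The platelet alpha-granule chemokine Pf4 depended on leukemic MEP 3. It was at 5067, 4225 and 82.6 FPKM in leukemic MEP against 1.83, 102 and 7.6 in control MEP, 99.3, 167 and 103 in control marrow and 298, 421 and 176 in GFP+ marrow. With control MEP 2 at 102 and leukemic MEP 3 at 82.6, the MEP groups overlapped. The difference was 5.26 ± 2.04 in 12 libraries (limma, adjusted p = 0.197) and 7.19 in 11 (adjusted p = 0.00608). Gp1ba, Gp1bb, Gp5, Treml1, F2rl3 and Rab27b likewise did not pass in 12 libraries and passed in 11, at 2.81 to 4.70. Gp1bb, at adjusted p = 0.0565 in 12 libraries, also passed under other settings, 7 of the 23 in all.

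Of 29 stem and progenitor genes, 9 were positive and 0 negative by the test (median 1.47), and without leukemic MEP 3 the counts were 15 and 1 (median 1.67). Meis1, a HOX cofactor of stem cells and leukemia, was at 2.27, 4.58 and 1.23 FPKM in control MEP against 111, 121 and 9.36 in leukemic MEP, and at 21.7, 20.5 and 19.8 in control marrow against 8.07, 16.3 and 6.02 in GFP+ marrow. Leukemic MEP 1 and 2 held the highest values of all libraries, and the difference was 4.99 ± 1.07 (limma, adjusted p = 0.0202; 6.16 without leukemic MEP 3, adjusted p = 5.4e-05). The call was lost without control MEP 1 or 3 (adjusted p = 0.0543 and 0.0679) or any 1 control marrow library (0.0565 to 0.066). Cd34, the progenitor surface sialomucin, was at 0.32 to 1.33 FPKM in control MEP against 9.53, 3.41 and 51.7 in leukemic MEP, and at 125 to 182 in control marrow against 24.4 to 74.4 in GFP+ marrow. Its difference of 4.41 ± 1.0 (limma, adjusted p = 0.0259; 3.42 without leukemic MEP 3) lost the call without any 1 control MEP library (adjusted p = 0.0526 to 0.0836), any 1 control marrow library (0.0629 to 0.0848) or GFP+ marrow 2 (0.0638).

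The other members called in this list were the transcription factors Runx1, Etv6, Hlf and Erg at 1.39 to 2.05, the surface protein Cd48 at 1.62, the niche ligand Angpt1 at 4.18, and the receptor Flt3. Kit, the stem cell factor receptor, was at 65.7 to 149 FPKM in control MEP against 21.3 to 76.1 in leukemic MEP, and its difference of -0.42 did not pass (limma, adjusted p = 0.776). Among 25 haematopoietic growth factor receptors, 3 were positive (Flt3, Csf2rb, Tgfbr2) and 1 negative (Ifngr1), with a median of 1.27. Without leukemic MEP 3 the counts were 4 and 1 and the median 0.90. Csf2rb, the common beta chain of several cytokine receptors, was at 0 to 0.0251 FPKM in control MEP against 2.99, 4 and 16.3 in leukemic MEP, and at 13.3 to 16.3 in control marrow against 6.75 to 14.9 in GFP+ marrow. Its difference was 3.31 ± 0.66 (limma, adjusted p = 0.0137; 0.0513 without control marrow 1). Flt3, the receptor of lymphoid and dendritic progenitors, was at 27, 17.8 and 18.1 FPKM in control marrow, 5.82, 1.77 and 0.0968 in GFP+ marrow and at most 3.21 in any MEP library, and its difference was 3.59 ± 0.85 (limma, adjusted p = 0.0309). This call was lost under 10 of the 23 alternative settings: with a pseudocount of 0.1 (adjusted p = 0.0979), with no filter (0.0655), by voom on the whole reads (0.0669) and without any 1 control library or GFP+ marrow 2 (0.0647 to 0.1).

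**Figure D2:**
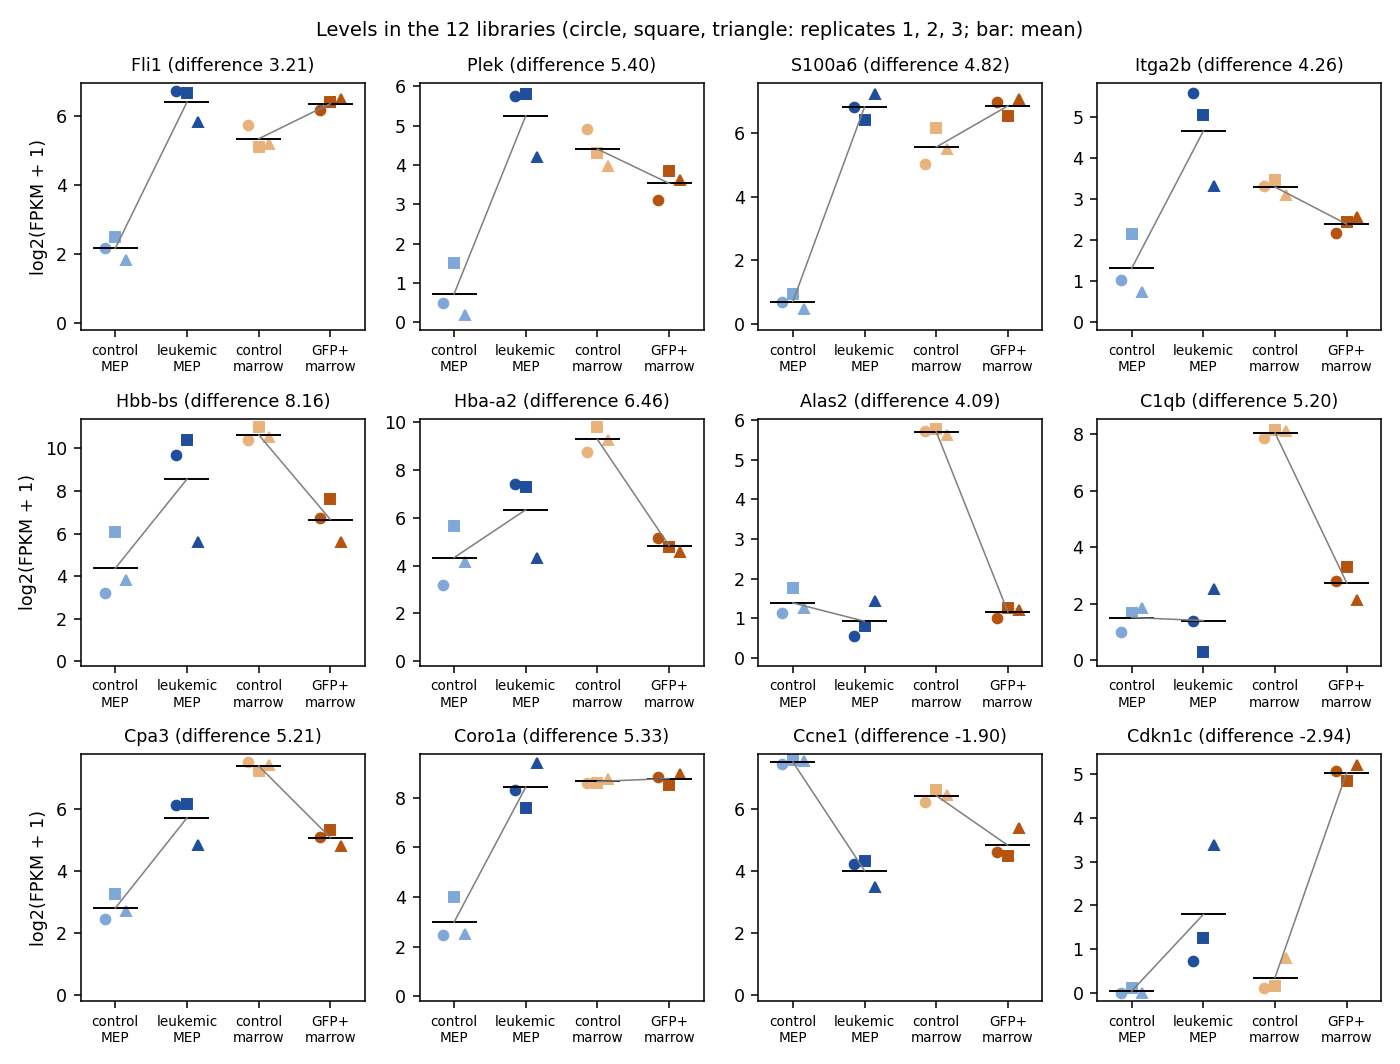
Levels of 12 genes in log2(FPKM + 1) for the 12 libraries, with replicates 1, 2 and 3 as circle, square and triangle, a bar at each group mean and a line joining control and Prdm16s groups. Fli1, Plek, Itga2b and Coro1a climb steeply from control to leukemic MEP, Alas2 and C1qb drop from control to GFP+ marrow while their MEP levels stay low, Hbb-bs and Cpa3 move opposite ways in the 2 pairs, and S100a6 climbs in both.

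In each population more red cell genes fell than rose. Of 37 erythroid genes, 22 fell and 3 rose in MEP, and 29 fell and 1 rose in marrow. Without leukemic MEP 3 these counts were 19 and 6 in MEP and 31 and 1 in marrow. The median change was -1.86 in MEP and -2.99 in marrow, and the difference had a median of 0.61 (1.32 without leukemic MEP 3), with 5 positive calls and 0 negative. The 5 were Hbb-bs and Hba-a2 (adult beta and alpha globin), Slc4a1 (the red cell anion exchanger band 3), Tmod1 (a membrane skeleton protein) and Trim10, at 1.70 to 8.16. Without leukemic MEP 3, 13 were positive and 1 (Cd24a) negative.

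Hbb-bs (chromosome 7, 103826523 to 103827928) was at 8.39, 66.2 and 13.1 FPKM in control MEP against 815, 1362 and 47.1 in leukemic MEP. It was at 1337, 2058 and 1466 FPKM in control marrow and 105, 197 and 48.3 in GFP+ marrow. The MEP groups overlapped through control MEP 2 and leukemic MEP 3, and the marrow groups did not. Hbb-bs rose by 4.18 ± 1.06 in MEP and fell by 3.98 in marrow, a difference of 8.16 ± 1.5 (limma, adjusted p = 0.00885) and of 9.65 without leukemic MEP 3 (adjusted p = 7.86e-05). Hbb-b2, a near-identical beta globin entry with which reads can be split, had a difference of 6.91. Its listed position (chromosome 7, 53494 to 54867) is not beside that of Hbb-bs, so it is not to be read as a separate adjacent gene.

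Hba-a2 (chromosome 11, 32296492 to 32297310) was at 8.16, 49.1 and 16.8 FPKM in control MEP against 168, 155 and 19.2 in leukemic MEP, and at 435, 910 and 614 in control marrow against 34.6, 26.2 and 22.9 in GFP+ marrow. Its change of 2.01 in MEP did not pass (limma, adjusted p = 0.0667; 3.01 and 0.00129 without leukemic MEP 3), it fell by 4.45 in marrow, and the difference was 6.46 ± 1.06 (adjusted p = 0.00474; 7.46 without leukemic MEP 3). Klf1 was at 585, 852 and 660 FPKM in control MEP against 278, 213 and 41.5 in leukemic MEP. It fell by 2.34 in MEP and by 3.14 in marrow, and the difference of 0.80 ± 0.96 did not pass (limma, adjusted p = 0.722). In 11 libraries the MEP change of Klf1 was -1.50 and lost its call (adjusted p = 0.0517), and the difference was 1.64 (0.194). The erythropoietin receptor gene Epor fell in both, and its difference of 1.06 did not pass (limma, adjusted p = 0.703). In the same 11 the MEP change of Epor was -1.52 and lost its call (adjusted p = 0.123; -2.51 and 0.0436 in 12 libraries), and the difference was 2.05 (0.214).

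Gata1 was at 302, 335 and 289 FPKM in control MEP against 242, 210 and 37.7 in leukemic MEP, and at 102, 139 and 129 in control marrow against 20.1, 24.6 and 39.0 in GFP+ marrow. All 3 leukemic MEP values were below the control MEP values, and that of leukemic MEP 3 lay among the GFP+ marrow values. The difference was 0.85 ± 0.76 in 12 libraries (limma, adjusted p = 0.625) and 1.70 in 11 (adjusted p = 0.00731). Gfi1b, a repressor of erythroid and megakaryocyte cells, was at 442 to 509 FPKM in control MEP against 208, 118 and 30.3 in leukemic MEP, and at 138 to 224 in control marrow against 10.7 to 15.5 in GFP+ marrow. It fell in both, by 2.36 and 3.73, and its difference of 1.38 did not pass (limma, adjusted p = 0.357) but did without leukemic MEP 3 (2.15; 0.00257).

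Among 22 haem and iron genes, 13 fell in MEP and 12 in marrow, and the median difference was -0.23 (-0.12 without leukemic MEP 3). Both positive calls came from the marrow side. Alas2, which makes the first committed haem precursor in red cells (chromosome X, 150547417 to 150570622), was at 52.2, 53.9 and 48.2 FPKM in control marrow and at 0.454 to 2.38 in the other 9 libraries. It fell by 4.55 ± 0.29 in marrow, did not pass in MEP (-0.46) and had a difference of 4.09 ± 0.41 (limma, adjusted p = 0.000256; 3.83 without leukemic MEP 3). Hmox1, the haem-degrading oxygenase of macrophages, was at 189, 212 and 178 FPKM in control marrow, 11.5, 5.29 and 26.8 in GFP+ marrow and 0.62 to 3.33 in MEP, with a difference of 3.83 ± 0.67 (limma, adjusted p = 0.00683).

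Macrophage and lymphocyte genes were also positive, mainly, though not in every gene, through falls in marrow. Of 30 monocyte and macrophage genes, 15 were positive and 0 negative by the test (median 2.58; 17 and 2.40 without leukemic MEP 3), 6 rose and 1 fell in MEP, and 1 rose and 13 fell in marrow. C1qb, a chain of complement C1q made by tissue macrophages (chromosome 4, 136880126 to 136886200), was at 232, 286 and 278 FPKM in control marrow, 6.05, 8.72 and 3.33 in GFP+ marrow and 0.23 to 4.73 in the MEP libraries. It fell by 5.31 ± 0.48 in marrow, its MEP change was -0.11, and the difference was 5.20 ± 0.68 (limma, adjusted p = 0.00144; 4.65 without leukemic MEP 3). Vcam1, an adhesion molecule of marrow macrophages and stroma, had 161, 88.2 and 98.3 FPKM in control marrow and at most 4.46 elsewhere, with a difference of 5.22 ± 0.76 (limma, adjusted p = 0.0023; 0.0504 with a pseudocount of 0.1 in place of 1 and 0.0856 by voom on the whole reads). The summed macrophage markers (C1qa, C1qb, C1qc, Vcam1) were 729 to 798 FPKM in control marrow, 12.5 to 25.4 in GFP+ marrow and 2.16 to 10.7 in MEP.

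Of 18 B lymphoid genes, 9 were positive and 0 negative (median 2.87; 9 and 2.35 without leukemic MEP 3), and 13 fell in marrow. Vpreb1, the surrogate light chain of B cell precursors, was at 28.1, 37.0 and 29.4 FPKM in control marrow, 1.20, 1.21 and 9.68 in GFP+ marrow and 0.419 to 2.18 in MEP, a difference of 3.84 ± 0.71 (limma, adjusted p = 0.00923; 3.73 without leukemic MEP 3). Of 16 T and NK genes, 6 were positive (median 1.92; 6 of 15 and 1.69 without leukemic MEP 3), and 3 rose in MEP and 7 fell in marrow. The 6 included Nkg7, a granule protein that myeloid precursors also express, which was at 16.2, 88.3 and 26.6 FPKM in control MEP against 538, 381 and 593 in leukemic MEP, with 682 to 1012 in marrow, with a difference of 3.69 ± 0.66 (limma, adjusted p = 0.00723; 3.56 without leukemic MEP 3). Nkg7 rose by 3.83 in MEP, and its marrow change of 0.14 did not pass. Cd27 likewise rose in MEP, by 2.28, with a marrow change of -1.21 that did not pass. The defining markers Cd2 and Klrd1 were listed at 0 in every GFP+ marrow library and were at 2.17 to 4.20 FPKM in control marrow. Their differences passed (limma, adjusted p = 0.0227 and 0.0224) but lost the call under 8 and 5 alternatives, voom among them (0.131 and 0.268). The remaining marker, Cd3e, was below the filter, at 0.0933, 1.5 and 0 FPKM in control marrow and 0 in GFP+ marrow. Of 12 dendritic cell and MHC class II genes 1 (Flt3) was called (median 1.35; 3 calls and 1.44 without leukemic MEP 3). Of 17 genes in the stromal and endothelial list only 4 met the filter, and 3 of these were called (Vim, Pecam1, Pdgfrb; 3 of 3 without leukemic MEP 3). The summed stroma markers (Col1a1, Cxcl12, Cdh5) were at most 2.90 FPKM in any library, so these calls do not stand for stromal cells. Vim and Pecam1 each lost the call under 12 of the 23 alternative settings, at adjusted p up to 0.13 and 0.127, and single control libraries were among those whose removal ended it.

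Granulocyte genes moved with leukemic MEP 3. For 12 primary granule genes the median difference was 3.82 in 12 libraries and 2.34 in 11, and for 35 neutrophil genes it was 3.37 and 1.45. Positive calls numbered 4 and then 6 of the 12, and 6 and then 12 of the 35, with 0 negative in either. In MEP 11 of the 12 and 16 of the 35 rose. The summed neutrophil markers (Ltf, Camp, Ngp, S100a8, S100a9, Ly6g) were 443, 1651 and 71880 FPKM in leukemic MEP 1, 2 and 3, 16.9 to 292 in control MEP and 62026 to 97620 in marrow, and their part in these calls was not tested.

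Ms4a3 and Serpinb1a were high in all 3 leukemic MEP libraries. Ms4a3, a marker of granulocyte and monocyte progenitors (chromosome 19, 11629499 to 11640851), was at 0.171, 3.72 and 0.743 FPKM in control MEP against 120, 205 and 510 in leukemic MEP, and at 383, 381 and 441 in control marrow against 823, 1230 and 995 in GFP+ marrow. Its difference was 5.46 ± 0.74 (limma, adjusted p = 0.00161; 4.89 without leukemic MEP 3). Serpinb1a, an inhibitor of neutrophil proteases, was at 1.51, 4.14 and 1.75 FPKM in control MEP against 88.2, 66.7 and 265 in leukemic MEP, with 288 to 381 in all marrow libraries and a difference of 5.19 ± 0.61 (limma, adjusted p = 0.000678; 4.60 without leukemic MEP 3). In contrast Mpo, the myeloperoxidase gene, was at 3.67, 28.7 and 20.1 FPKM in control MEP against 167, 150 and 7897 in leukemic MEP, and at 5570 to 9221 in marrow. Its difference was 4.89 ± 1.68 (limma, adjusted p = 0.145), and 3.01 without leukemic MEP 3 (adjusted p = 0.0238).

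Spi1, the ETS factor PU.1 of myeloid cells, was at 3.69, 5.36 and 2.11 FPKM in control MEP against 83.3, 42.6 and 298 in leukemic MEP, and at 177, 170 and 197 in control marrow against 420, 340 and 378 in GFP+ marrow. It rose by 4.51 in MEP, its marrow change of 1.06, between groups that did not overlap, did not pass in 12 libraries (limma, adjusted p = 0.245) but did in the 11 without leukemic MEP 3 (0.0191), and the difference was 3.45 ± 0.74 (limma, adjusted p = 0.0199; 2.68 without leukemic MEP 3). The call was lost without control MEP 1 or 3 (adjusted p = 0.0502 and 0.0679) or any 1 control marrow library (0.0543 to 0.0632). The differences of Cebpa, Cebpe and Elane did not pass with or without leukemic MEP 3.

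Of 20 basophil, mast cell and eosinophil genes, 6 were positive and 0 negative by the test (median 3.35), and without leukemic MEP 3 12 were positive and 1 negative (median 2.06). Cpa3, the mast cell carboxypeptidase (chromosome 3, 20215616 to 20242209), was at 4.51, 8.42 and 5.48 FPKM in control MEP against 69.0, 69.1 and 27.7 in leukemic MEP, and at 180, 146 and 170 in control marrow against 32.7, 38.9 and 27 in GFP+ marrow. It rose by 2.90 ± 0.33 in MEP and fell by 2.31 in marrow, with no overlap in either pair, and the difference was 5.21 ± 0.47 (limma, adjusted p = 0.000172; 5.64 without leukemic MEP 3). Mcpt8, a basophil protease, was at 30.2, 17.9 and 145 FPKM in leukemic MEP, at most 0.151 in control MEP and 67.6 to 175 in marrow, a difference of 4.79 ± 0.81 (limma, adjusted p = 0.0057; 3.93 without leukemic MEP 3).

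Prss34, another basophil protease, had a difference of 8.90 ± 1.78 (limma, adjusted p = 0.0137; 0.0534 without control marrow 1). This was the value farthest from 0 in 12 libraries, and without leukemic MEP 3 it was 6.76, below those of Hbb-bs, Hbb-b2 and Hba-a2 (9.65, 7.84 and 7.46). Prss34 was at 201, 86.6 and 116 FPKM in control marrow, listed at 0 in all GFP+ marrow libraries and in leukemic MEP 1 and 2, and at 84.0 in leukemic MEP 3. In control MEP it was at most 0.46. It fell by 6.99 in marrow, and its MEP change of 1.90 did not pass (limma, adjusted p = 0.288; -0.23 without leukemic MEP 3). Fcer1a, the alpha chain of the IgE receptor, was at most 0.136 FPKM in control MEP against at 265, 590 and 18.0 in leukemic MEP, against 2.53 to 7.83 in control marrow and 18.6, 107 and 22.0 in GFP+ marrow. Its difference of 4.23 did not pass (limma, adjusted p = 0.14) but did without leukemic MEP 3 (5.69; 0.00128). Epx, the eosinophil peroxidase, went the other way in 11 libraries. It was at 0.0334, 1.68 and 143 FPKM in leukemic MEP compared with 300, 375 and 447 in GFP+ marrow. Its control levels were at most 0.90 in MEP and 5.02 to 16 in marrow, and the difference was -2.86 in 12 libraries (limma, adjusted p = 0.469) and -5.00 without leukemic MEP 3 (adjusted p = 0.000648). The other eosinophil markers did not share this negative call. Without leukemic MEP 3, Ear1 was positive at 2.80 (limma, adjusted p = 0.0183) and Prg2, at -2.41, did not pass (0.463).

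**Figure D3:**
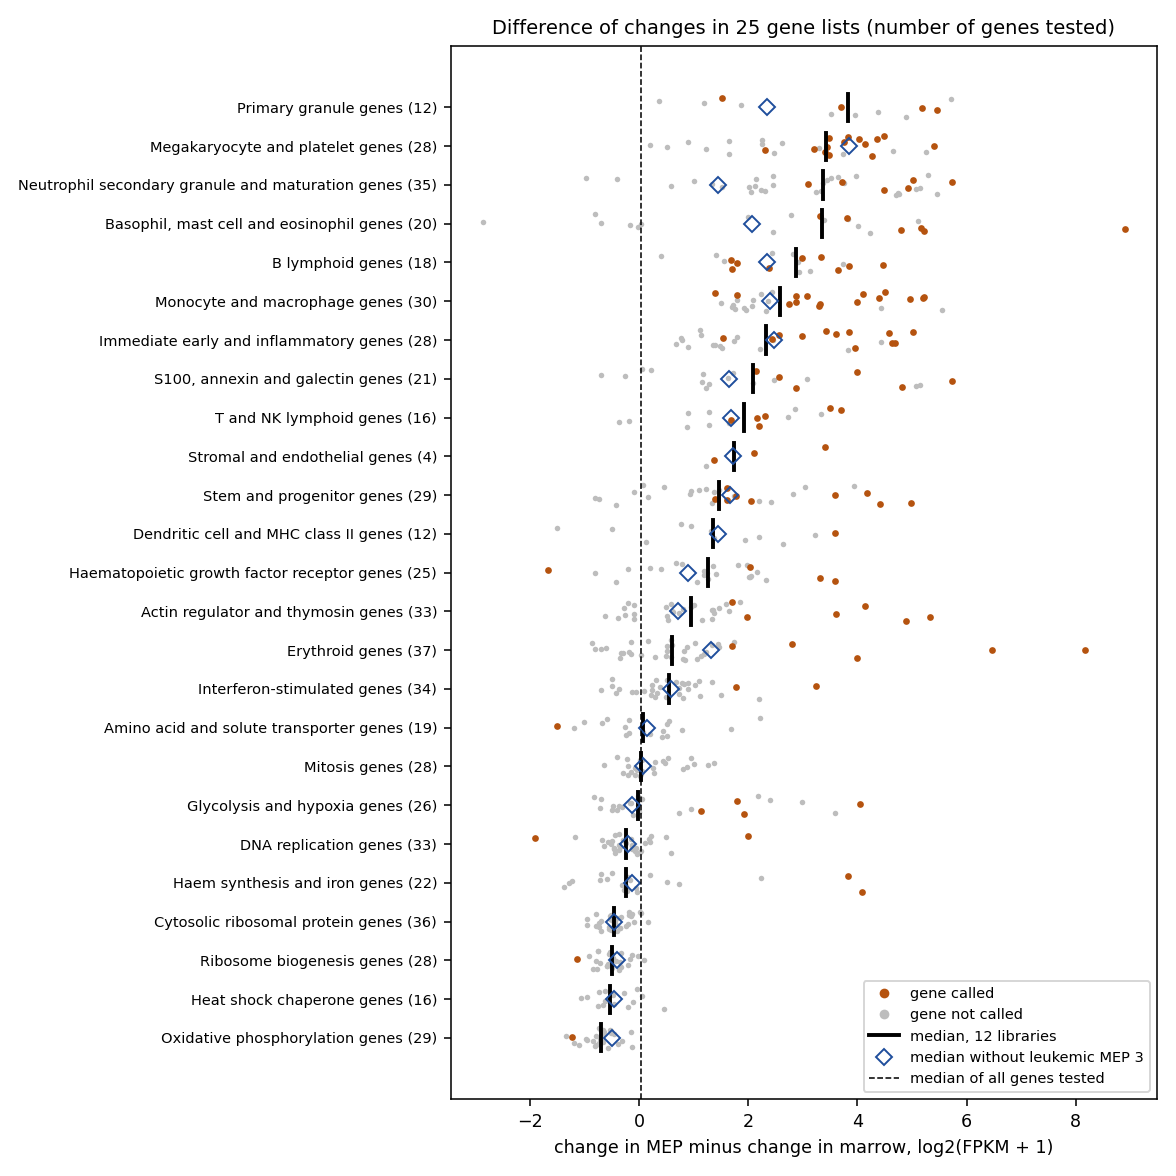
Each dot is a tested gene of 1 of 25 lists, placed by its change in MEP minus its change in marrow in log2(FPKM + 1), orange where called. The black bar is the list's median in 12 libraries, the open diamond the median without leukemic MEP 3 and the dashed line the median of all tested genes. The diamonds of the primary granule (2.34) and neutrophil (1.45) lists lie left of their bars (3.82 and 3.37), and that of the megakaryocyte list (3.84) lies right of its bar (3.42).

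Of 33 actin regulators and thymosins, 6 were positive and 0 negative (median 0.96; 8 and 0.72 without leukemic MEP 3), with 22 rising in MEP and 1 in marrow. Coro1a, an actin-binding protein of leukocytes, was at 4.55, 14.9 and 4.68 FPKM in control MEP against 318, 189 and 681 in leukemic MEP. Its marrow levels were 389 to 432 FPKM in controls and 363 to 503 in GFP+ cells, which overlapped, and the difference was 5.33 ± 0.64 (limma, adjusted p = 0.00082; 4.84 without leukemic MEP 3). Tmsb4x, the actin-sequestering thymosin beta 4, was at 31.1, 158 and 40.0 FPKM in control MEP against 4552, 4620 and 2886 in leukemic MEP, and at 3124 to 7998 in marrow, a difference of 4.89 ± 0.69 (limma, adjusted p = 0.00191; 5.11 without leukemic MEP 3).

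Of 21 S100, annexin and galectin genes, 6 were positive and 0 negative (median 2.08; 10 and 1.64 without leukemic MEP 3). S100a6, the calcium-binding calcyclin, was at 0.597, 0.935 and 0.389 FPKM in control MEP against 112, 83.4 and 149 in leukemic MEP, and at 31.7, 70.3 and 43.6 in control marrow against 124, 91.5 and 132 in GFP+ marrow. It rose in both pairs without overlap, by 6.11 ± 0.31 and 1.30 ± 0.31, and the difference was 4.82 ± 0.43 (limma, adjusted p = 0.000172; 4.61 without leukemic MEP 3). Anxa1, an annexin of neutrophils, was at 5.46 to 8.0 FPKM in control MEP against 118, 108 and 504 in leukemic MEP, and at 421 to 1738 in marrow, a difference of 5.73 ± 0.71 (limma, adjusted p = 0.000964; 5.02 without leukemic MEP 3).

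Among 26 glycolysis and hypoxia genes, 4 were positive (Pkm, Hk2, Slc2a3, Pfkp), with a median of -0.02 (5 positive, 1 negative and -0.13 without leukemic MEP 3). Pkm, the pyruvate kinase that control MEP held at only 1.24 to 3.97 FPKM, was at 89.8, 58.4 and 307 in leukemic MEP, 139 to 164 in control marrow and 312 to 423 in GFP+ marrow. Its difference was 4.04 ± 0.69 (limma, adjusted p = 0.00572; 3.35 without leukemic MEP 3). Of 34 interferon-stimulated genes, 2 (Ifitm1, Rsad2) were positive, with a median of 0.54 (3 and 0.58 without leukemic MEP 3), a share near the 4.52% of all tested genes. Hk2, Ifitm1 and Rsad2 lost their calls under 9, 11 and 10 of the 23 alternatives, single control marrow libraries among them.

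Of 28 immediate early and inflammatory genes, 12 were positive and 0 negative (median 2.32; 15 and 2.47 without leukemic MEP 3), with 11 rising in MEP and 6 falling in marrow. They included the chemokines Ccl3 and Ccl4, the transcription factor Jun, the cytokine Tnf and the signalling inhibitors Rgs1 and Rgs2. Zfp36, an mRNA-decay factor, was at 0.912, 1.75 and 0.871 FPKM in control MEP against 85.2, 8.25 and 52.2 in leukemic MEP, and at 61.6 to 89.4 in control marrow against 33.6 to 60.2 in GFP+ marrow. It rose by 4.02 in MEP, its marrow change of -0.66 did not pass, and the difference was 4.69 ± 0.87 (limma, adjusted p = 0.00937; 4.38 without leukemic MEP 3).

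Ranked by the smaller of the 2 differences, with and without leukemic MEP 3, among genes called in both and with a group mean of at least 10 FPKM, the 12 highest of the reported genes were Hbb-bs, Hbb-b2, Prss34, Hba-a2, Serpina3g, Plek, Cpa3, Ctla2a, Adgrl4, Pimreg, Gng11 and Rgs1, at 5.02 to 8.90. Of these, 9 kept the call under all 23 alternative settings. Besides Prss34, Pimreg lost it, without control MEP 1 or 3 (adjusted p = 0.0532 and 0.0521) or control marrow 1 or 2 (0.0637 and 0.058). Rgs1, an inhibitor of G protein signalling, was at 2.06, 3.30 and 0.334 FPKM in control MEP against 129, 105 and 6.01 in leukemic MEP, and at 17.0 to 28.6 in control marrow against 7.77 to 16.6 in GFP+ marrow. Its difference of 5.02 ± 1.23 (limma, adjusted p = 0.0379; 6.37 without leukemic MEP 3) lost the call under 13 of the 23 settings, among them the loss of any 1 library other than leukemic MEP 3 (adjusted p = 0.0575 to 0.114). Serpina3g, a serine protease inhibitor of haematopoietic cells, was at 1.33, 6.22 and 1.80 FPKM in control MEP against 397, 527 and 52.7 in leukemic MEP, and at 50.2 to 64.8 in control marrow against 31.6 to 136 in GFP+ marrow, a difference of 5.53 ± 1.10 (limma, adjusted p = 0.0134; 6.56 without leukemic MEP 3). Adgrl4, Gng11 and Pimreg shared a low value in GFP+ marrow 3, at 0.0862, 0 and 0.402 FPKM against 1.83 to 17.5 in GFP+ marrow 1 and 2. Without that library these 3 genes kept their calls.

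**Figure D4:**
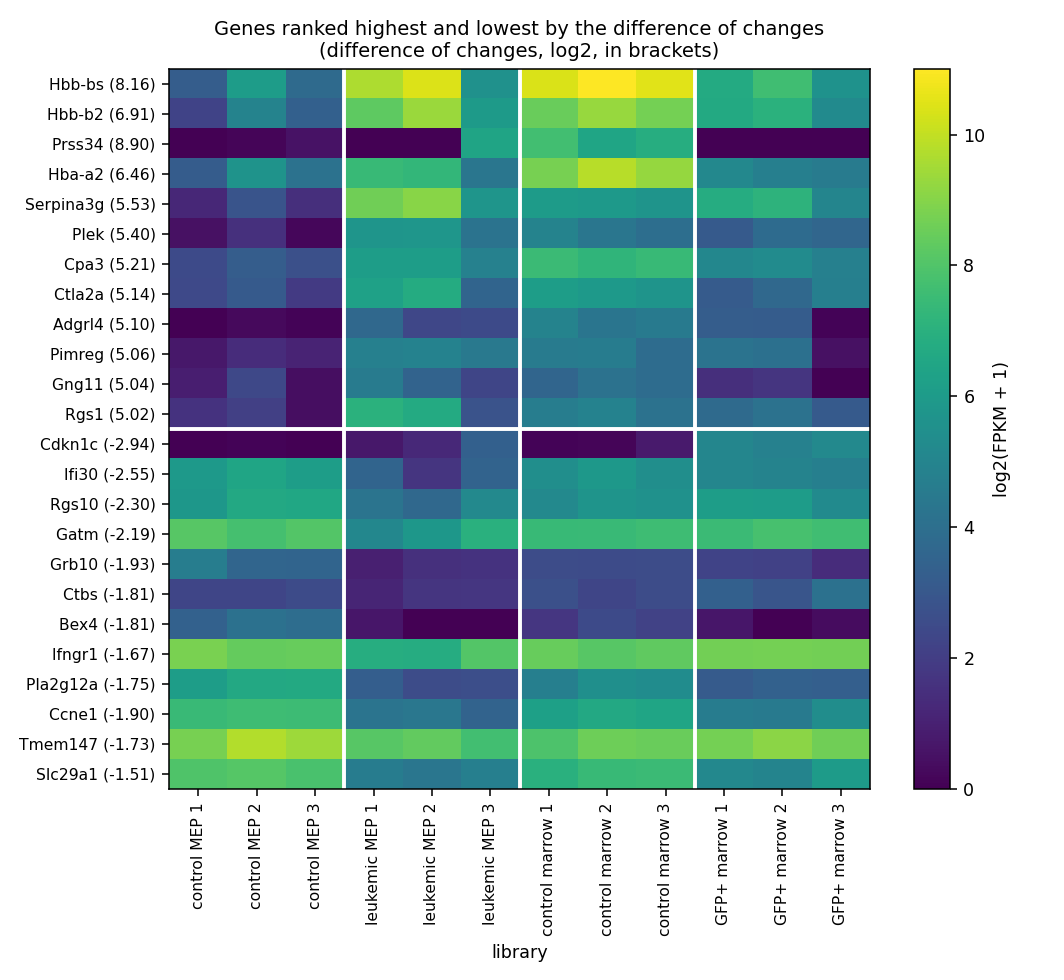
Heat map of log2(FPKM + 1) in each of the 12 libraries for the 12 genes ranked highest (top) and the 12 ranked lowest (bottom) by the difference of changes, which is given in brackets. Most of the top genes are dark in control MEP and bright in control marrow, and most of the bottom genes are brighter in control MEP than in leukemic MEP.

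Negative differences were fewer and smaller. The 12 ranked lowest were Cdkn1c, Ifi30, Rgs10, Gatm, Grb10, Ctbs, Bex4, Ifngr1, Pla2g12a, Ccne1, Tmem147 and Slc29a1, at -2.94 to -1.51. Each kept its call without leukemic MEP 3, and each lost it without control MEP 3, control marrow 1 or control marrow 3. Over all 23 alternatives, each lost it under 3 (Ccne1) to 17 (Cdkn1c), and none changed sign.

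Cdkn1c, the cyclin-dependent kinase inhibitor p57 (chromosome 7, 143458339 to 143461059), was at 32.6, 27.7 and 35.8 FPKM in GFP+ marrow and 0.647, 1.39 and 9.48 in leukemic MEP. It was at 0, 0.0693 and 0 FPKM in control MEP and 0.069, 0.111 and 0.719 in control marrow. GFP+ marrow alone was high, and the highest leukemic MEP value was in library 3. Cdkn1c rose by 1.76 in MEP and 4.69 in marrow, and the difference was -2.94 ± 0.76 (limma, adjusted p = 0.0455; -3.74 and 0.000133 without leukemic MEP 3). With a pseudocount of 0.1 in place of 1 the adjusted p was 0.33, and leaving out any 1 library other than leukemic MEP 3 gave 0.0792 to 0.134.

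Ccne1, the cyclin E1 gene (chromosome 7, 38097984 to 38107490), was at 176, 191 and 187 FPKM in control MEP against 17.8, 19.3 and 10.3 in leukemic MEP, and at 75.4, 98.2 and 87.0 in control marrow against 23.6, 21.8 and 40.8 in GFP+ marrow. It fell in both pairs, without overlap, by 3.51 in MEP and 1.61 in marrow. The difference was -1.90 ± 0.39 (limma, adjusted p = 0.0158), with 0.0513, 0.064 and 0.051 without control MEP 3, control marrow 1 and control marrow 3. Pla2g12a, a secreted phospholipase, and Slc29a1, a nucleoside transporter, fell in both pairs too. Pla2g12a fell by 3.65 in MEP and fell by 1.90 in marrow, and Slc29a1 fell by 3.42 and fell by 1.91.

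Gatm, which makes the creatine precursor, was at 286, 217 and 270 FPKM in control MEP against 33.3, 56.1 and 125 in leukemic MEP, and at 172 to 222 in all marrow libraries. It fell by 2.03 in MEP, its marrow change of 0.16 did not pass, and the difference was -2.19 ± 0.51 (limma, adjusted p = 0.0291; -2.69 without leukemic MEP 3). Ifi30, a lysosomal thiol reductase, was at 59.5, 86.7 and 67.9 FPKM in control MEP against 10.6, 2.24 and 10.2 in leukemic MEP, and at 25.6 to 58.3 in marrow, a difference of -2.55 ± 0.57 (limma, adjusted p = 0.0249; -2.84 without leukemic MEP 3). Ifngr1, the interferon gamma receptor, fell by 1.30 in MEP and had a difference of -1.67 (limma, adjusted p = 0.0446). The calls of Gatm, Ifi30 and Ifngr1 were lost under 11, 7 and 15 of the 23 alternative settings, single control libraries among them. Their adjusted p reached 0.144 (Gatm, quantile normalization), 0.0821 (Ifi30, without control marrow 1) and 0.292 (Ifngr1, quantile normalization), and Ifngr1 also lost its call with the replicate block (0.0603).

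In the lists of growth and energy genes the counts are to be read beside the 4.52% of all tested genes that were positive and the 0.366% that were negative. Of 33 DNA replication genes, 1 was positive (E2f2) and 1 negative (Ccne1), with a median of -0.23, 19 falls in MEP and 9 in marrow. The 28 mitosis genes had 0 calls by limma or by voom and a median of 0.04, with 3 at an unadjusted p under 0.05. Of 28 ribosome biogenesis genes 1 was negative (Wdr12; median -0.50), with 20 falls in MEP and 7 in marrow. Of 29 oxidative phosphorylation genes 1 was negative (Uqcrfs1; median -0.70), with 13 falls in MEP and 0 in marrow. The 36 cytosolic ribosomal protein genes had 0 calls by either tool (median -0.46; 3 at an unadjusted p under 0.05), the 16 heat shock chaperones 0 (median -0.53; 2 at an unadjusted p under 0.05), and of 19 transporters 1 was negative (Slc29a1; median 0.08). Without leukemic MEP 3 the counts of called differences in these 7 lists were the same, while their falls became 21 in MEP and 17 in marrow for DNA replication, 20 and 11 for ribosome biogenesis and 9 and 1 for oxidative phosphorylation. With FPKM totals made equal or by quantile normalization, the medians of the DNA replication, haem, glycolysis and transporter lists crossed or reached 0, and those of the ribosome, oxidative phosphorylation and heat shock lists stayed negative, at -0.44 to -0.18. These settings also moved the median of all tested genes, to 0.25 and -0.15. The DNA replication median of 0.03 with equal totals was still below that of all genes. The cytosolic ribosomal median of -0.18 by quantile normalization was close to it. E2f2, Wdr12 and Uqcrfs1 lost their calls under 7, 13 and 9 of the 23 alternatives, each without control MEP 3 (adjusted p up to 0.117) or control marrow 1 (up to 0.132).

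Some genes did not pass in 12 libraries and passed in the 11 without leukemic MEP 3, and some of these passed under other settings too. The 8 highest of these (a choice made after values were seen) were Pf4, Ackr1, Fcer1a, Hbq1b, Mycn, Gzmb, Dusp1 and Eya2, and the 8 lowest were Epx, Tmem178, Cystm1, C5ar2, Pnp2, Clec4b2, Mrgpra2a and Sqor. Mycn, a MYC-family factor, was at 107, 74.9 and 3.69 FPKM in leukemic MEP, 0.154 to 2.07 in control MEP and 4.41 to 8.16 in marrow, and its difference went from 3.94 (limma, adjusted p = 0.113) to 5.36 (adjusted p = 7.86e-05). Gzmb, the protease granzyme B, was at 227, 257 and 20.1 FPKM in leukemic MEP, at most 0.0987 in control MEP, 0.757 to 4.80 in control marrow and 8.75 to 47.1 in GFP+ marrow, with 4.01 and 5.18. In the negative direction Sqor, a mitochondrial sulfide oxidase, was at 4.17, 7.20 and 46.4 FPKM in leukemic MEP against 28.7 to 69.4 in the other groups, with -2.16 and -3.12. In each of these 3 genes leukemic MEP 3 lay closer to the GFP+ marrow libraries than leukemic MEP 1 and 2 did.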

How the data were processed

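Bulk RNA of the 12 libraries was sequenced after sorting into Trizol, Smart-seq2 cDNA synthesis and Nextera XT library preparation, per the labels' protocols. The deposited table holds FPKM values that the authors computed. CASAVA, bcl2fastq, STAR 2.5.3a, DESeq2 1.18.1 and the build mm10 are named, with no roles given, per the submitters' processing notes, and no read counter or gene annotation is given in the sources used here. Every FPKM above 0 could be written as a whole number of reads over a whole gene length and a library factor (100% of 16728 genes, tolerance 0.02), which gave the depth of each library.

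The contrast was fitted with limma 3.58.1 (R 4.3.3) with an intensity trend on log2(FPKM + 1), with 1 mean for each of the 4 groups and 8 residual degrees of freedom, over 11462 genes with at least 1 FPKM in at least 3 libraries. Benjamini-Hochberg adjusted p-values under 0.05 were called. A second fit left out leukemic MEP 3. Fold changes on this scale understate those of low genes, and a difference of log2 changes depends on that scale. Levels are per library or mean ± SD (n = 3), and differences carry their SE. Gene lists were described by counts and medians, not tested. The members and lists were chosen with earlier results of these data known. Named genes were a fixed list of regulators and markers, the 12 highest and 12 lowest genes by the rank described in the report (unnamed genes, receptor segments, ribosomal genes, Xist and Y-linked genes left out, as were 2 genes not reported here, which stayed in the fit but in no list) and up to 2 called members of each list in each direction. Other genes were named after their values were seen. The procedure was also run on simulated reads, with the same gene means in every library except for changes set in leukemic MEP. Those reads held no difference between MEP and marrow and no library with a content unlike its group. They therefore give no error rate for the present data. Replicate numbers did not meet the criterion for pairing (a correlation of deviations over 0.1 in every same-numbered pair), so the fit has no block. The criterion also covered pairs of a control with a Prdm16s library, which come from different mice. It therefore cannot decide whether same-numbered libraries of the same genotype share a mouse. The alternatives tried were other pseudocounts (0.1, 0.5) and filters (none, 5 FPKM), equal FPKM totals, quantile normalization, voom on the recovered reads, library weights, a robust fit, each library left out and the replicate block. Gene positions come from the RefSeq table of GRCm38.p6, in which 24061 of 24107 Entrez numbers matched. Python 3.11.15, numpy 2.4.6, pandas 2.3.3 and matplotlib 3.10.9 were also used.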

Additional observations from a re-analysis of the deposited data

Results flagged for a closer look

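The MEP and marrow changes differed, by limma's test of the difference itself, for 518 genes in the positive and 42 in the negative direction. The genes named by the rule are given here with their difference of log2 changes. The calls that leaving out single libraries ends stand beside the genes in the report.

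Among megakaryocyte and stem cell genes the differences were 5.40 for Plek, 4.99 for Meis1, 4.49 for Tbxa2r, 4.41 for Cd34, 4.26 for Itga2b, 3.21 for Fli1 and 2.30 for Vwf. Flt3, the lymphoid progenitor receptor, was at 3.59 and Csf2rb at 3.31. Of the remaining top-ranked genes, Serpina3g was at 5.53, Ctla2a at 5.14, Adgrl4 at 5.10, Pimreg at 5.06 and Gng11 at 5.04. Red cell and haem genes were at 8.16 (Hbb-bs), 6.91 (Hbb-b2), 6.46 (Hba-a2), 4.09 (Alas2) and 3.83 (Hmox1).

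Granulocyte, mast cell and basophil genes were at 8.90 (Prss34), 5.73 (Anxa1), 5.46 (Ms4a3), 5.21 (Cpa3), 5.19 (Serpinb1a), 5.01 (Retnlg) and 3.45 (Spi1). Retnlg, a resistin-like neutrophil gene, lost its call under 11 of 23 alternatives. Macrophage and lymphoid genes were at 5.22 (Vcam1), 5.20 (C1qb), 4.46 (Vpreb3), 3.84 (Vpreb1), 3.69 (Nkg7) and 3.49 (Cd27). Vpreb3, which pairs with Vpreb1 in B cell precursors, lost its call under 16 of 23 alternatives.

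Genes of the remaining lists were at 5.33 (Coro1a), 5.02 (Rgs1), 4.89 (Tmsb4x), 4.82 (S100a6), 4.69 (Zfp36), 4.04 (Pkm), 3.40 (Vim), 3.24 (Ifitm1), 2.11 (Pecam1), 1.99 (E2f2), 1.93 (Hk2) and 1.78 (Rsad2).

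Negative differences were -2.94 for Cdkn1c, -2.55 for Ifi30, -2.30 for Rgs10, -2.19 for Gatm, -1.93 for Grb10, -1.90 for Ccne1, -1.81 for Ctbs, -1.81 for Bex4, -1.75 for Pla2g12a, -1.73 for Tmem147, -1.67 for Ifngr1, -1.51 for Slc29a1, -1.22 for Uqcrfs1 and -1.14 for Wdr12.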

How the results depend on the processing

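Of 64 named and called genes, 28 kept their call under all 23 alternatives, none changed sign, and the others lost it under at most 17. The 560 calls became 890 (793 positive, 97 negative) with voom on recovered reads, 2966 (1962 and 1004) with library weights, 384 (312 and 72) with quantile normalization, 719 (702 and 17) with equal FPKM totals and 1003 (829 and 174) without the lowest-depth pair, leukemic MEP 3 and GFP+ marrow 2. The filter at 5 FPKM left 27 negative calls. Leaving out 1 library gave 213 to 1075 calls, 210 to 864 positive and 3 to 211 negative, with the fewest without control marrow 1 and the most without leukemic MEP 3. The cause of these moves was not tested. Equal totals moved the median difference of all genes to 0.251 and quantile normalization to -0.148, from 0.0355. The replicate block gave 490 calls (470 positive, 20 negative), and 10 named genes lost theirs: Grb10, Ctbs, Bex4, Ifngr1, Slc29a1, Vpreb3, Vim, Pecam1, Wdr12 and Rsad2. The numbers did not meet the criterion for pairing: same-numbered libraries of different groups correlated at -0.269 to 0.497, over 0.1 in 5 of 18 pairs (within a genotype at 0.073 to 0.497, over 0.1 in 4 of 6), and 14 of 36 comparisons matched best on the own number. All 6 pairs within a genotype were above 0, and Xist and Ddx3y followed the number in both Prdm16s groups. The block that was fitted gave each replicate number a term shared by control and Prdm16s libraries, which come from different mice. Whether same-numbered libraries of the same genotype share mice was not tested. A pairing of this kind would call for a block within each genotype, which was not fitted, so the calls with the block do not show its effect.

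Some genes that did not pass the test in 12 libraries changed sign. Prdm16 was at -0.34 with quantile normalization. Gfi1 was at 1.93 and 0.36 with pseudocounts of 0.1 and 0.5, 0.20 with equal totals, 2.70 with voom and -1.40 to 0.57 with 1 library left out. Prg2 was at -0.67 with voom, -2.47 with library weights, -2.48 without the lowest-depth pair and -2.41 to 1.82 with 1 library left out. With 1 library left out, H2-Ab1 ranged from -0.31 to 0.52, Eng from -0.12 to 0.28, Kit from -0.88 to 0.01 and Clec4b2 from -3.23 to 0.14. Ly6g was at -0.26 without the lowest-depth pair, and Clec4b2 at 0.02 with a pseudocount of 0.1.

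In leukemic MEP 3, 1 read on a gene of 2 kb was worth 0.837 FPKM, and in GFP+ marrow 2 it was worth 0.463, against 0.0449 to 0.0765 in the other libraries. Low values in these 2 libraries are correspondingly coarse, and Smart-seq2 reads carry no molecular identifiers.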

Other observations

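The negative genes Cdkn1c and Grb10 are imprinted genes, expressed mainly from 1 parental copy. A list of 27 imprinted genes was therefore drawn up after these values were seen. Of 13 tested, these 2 were called, and 3 were called without leukemic MEP 3. The third was Sgce, with the opposite sign (3.28). Over all tested genes 4.52% were positive and 0.366% negative, and without leukemic MEP 3 7.62% and 1.86%. The list was drawn up because of these 2 genes, so their calls say nothing about imprinted genes as a group. The differences of the 13 ranged from -2.94 to 2.30.

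Xist was at 39.2 to 57.1 FPKM in leukemic MEP 1 and 2 and GFP+ marrow 1 and 2, and at no more than 0.0904 in the other 8 libraries. The sex of the mice is not in the labels. The Y-linked gene Ddx3y was at 10.3 to 20.7 FPKM in the 6 control libraries, 27.6 in leukemic MEP 3 and 23.1 in GFP+ marrow 3, and at 0 to 0.392 in leukemic MEP 1 and 2 and GFP+ marrow 1 and 2. These levels therefore differed between the controls and numbers 1 and 2 of both Prdm16s groups, and within each Prdm16s group. The differences of changes of Xist (0.25) and Ddx3y (-0.17) did not pass the test in 12 libraries (limma, adjusted p = 0.969 and 0.974). Leaving out leukemic MEP 3 removed the only leukemic MEP library with high Ddx3y, while GFP+ marrow 3 stayed in. The differences were then 2.17 and -1.78 and did not pass (limma, adjusted p = 0.479 and 0.495). Their MEP changes in these 11 libraries, 5.70 and -4.04, passed (limma, adjusted p = 0.00343 and 0.00952). The part of sex in the 11-library results was not tested.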
